A study of Sus scrofa with 8 samples.

Results

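The genes of meiosis, sperm chromatin, the acrosome and sperm energy metabolism described here are SPO11, PRM1, TNP1, ACR, ACRBP, SPAM1, ZPBP, ZAN and PGK2. A probe was taken as theirs if its accession in the scanner output belonged to one of these genes in the pig RefSeq table, or if the study's own list of testis probes named it so, which it did for 0 of them. This gave 1 probe for each of 7 of the 9 genes, 7 of the 43603 probes on the array. TNP1 and ACRBP were not analysed here. Each of the 7 transcripts was read well above background in all 8 testes, and 5 of the 7 means were lower and 2 higher on the supplemented diet. None of the differences passed the test against the spread between boars, with adjusted p from 0.840 to 0.952 in limma.

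Male germ cells pass through meiosis, in which chromosomes are cut and recombined, and the haploid spermatids that follow are rebuilt into sperm. During this rebuilding protamines replace the histones and pack the DNA, the acrosome forms over the nucleus as a vesicle filled with enzymes and binding proteins for the passage through the egg coat, and the cells switch to energy enzymes of their own. Most of these transcripts are made in spermatocytes or spermatids and in few other cells, so that in a whole testis they report on the germ cells past the spermatogonia.

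Testis RNA came from 8 Large White boars, each hybridized with the dye Cy3 to 1 porcine Agilent array. From 1 to 10 months of age 4 boars (m_9597, m_9599, m_9499 and m_9527) had a standard feed with added folate, betaine, choline, methionine and the vitamins B12 and B6, and 4 boars (m_9598, m_9600, m_9502 and m_9528) the standard feed alone. The boars m_9597 to m_9600 were full brothers of one litter and shared slide 1, and the other 4 boars shared slide 2, with both diets on each slide. The other 4 came from more than one litter, and the sources used here do not give which boar was of which. Being a brother and lying on slide 1 therefore cannot be told apart, nor can diet and the place on the slide, since the supplemented boars had the places 1 and 3 and the control boars the places 2 and 4. The comparison asks whether the diet changed transcripts needed to make sperm. Values are log2 signals after quantile normalization, and a log2 fold change is the mean of the supplemented boars minus that of the control boars, so that it is negative where the supplemented boars were lower. All values are limited in precision by the number of arrays.

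The RNA had the marks of a testis with somatic and germ cells in all 8 boars. The Leydig cell hormone INSL3 (A_72_P232832) lay between 18.50 and 18.74, and the brightest probe of the Sertoli cell hormone AMH (A_72_P326123) between 11.32 and 12.08. In bulk tissue, fewer cells of a type and less RNA per cell cannot be told apart.

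No member passed a limma P of 0.05 in either direction (0 of 7). Over the 36982 probes called present (well above background on 50% or more of the arrays of a diet), 1.86% passed it, 0.938% as higher and 0.925% as lower on the supplemented diet, and 0% passed it after Benjamini-Hochberg adjustment. In 0 of the 7 genes did all boars of one diet lie above all boars of the other, beside 1.13% of the present probes. The median log2 fold change of the 7 members was -0.06, and that of the present probes -0.003. The median of the members turned to 0.03 in the brothers, was -0.13 in the other boars, and lay between -0.14 (without m_9600) and -0.04 (without m_9502) when single boars were left out. The median size of the difference, whatever its sign, was 0.13 for the members and 0.17 for the present probes. With 4 boars against 4 a two-sided exact permutation test cannot go below p = 0.0286.

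**Figure D1:**
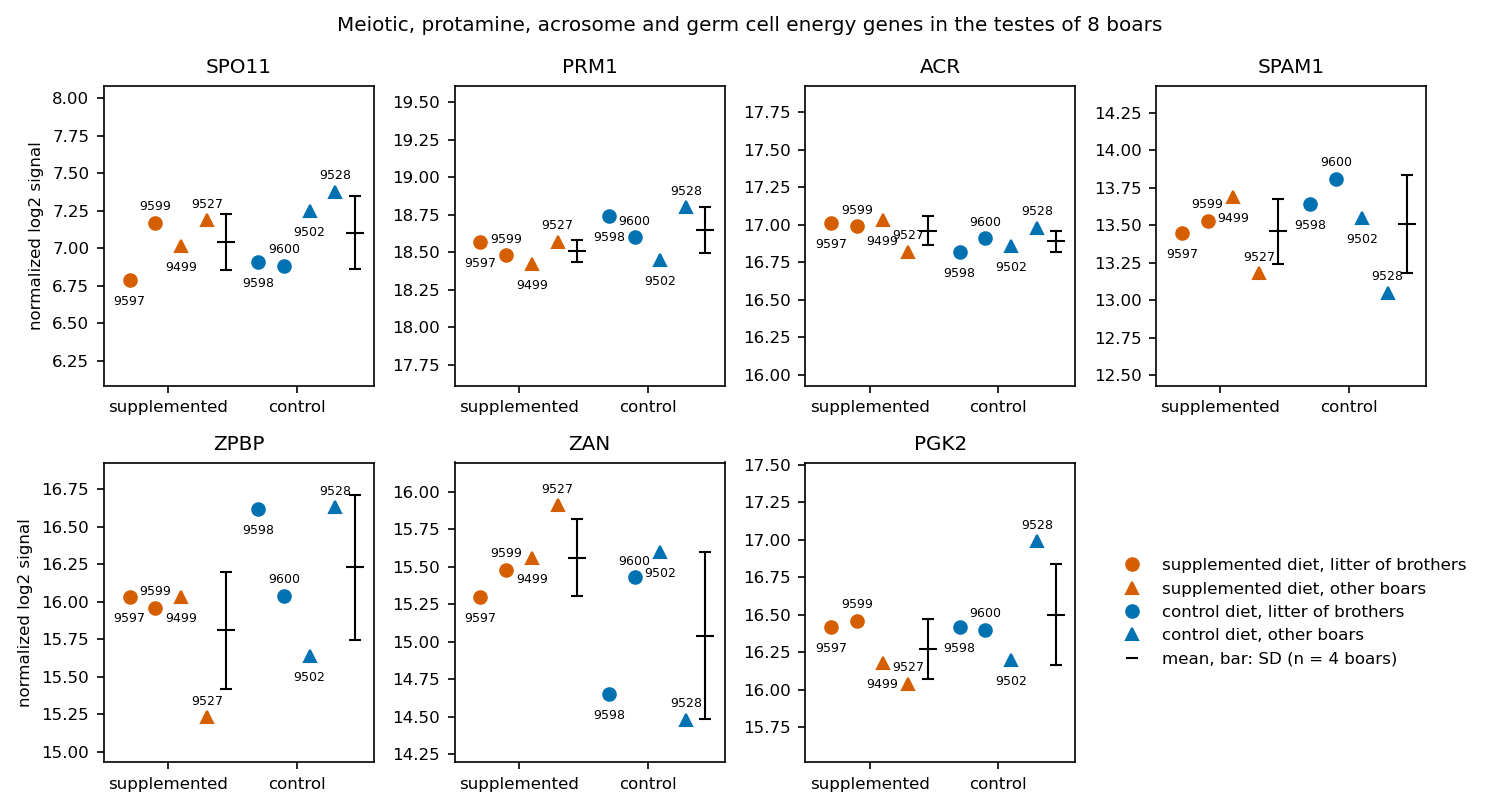
Normalized log2 signal (vertical axis, the same span of 2 log2 units in each panel) of the 7 genes in each boar (labelled by the digits of its name), by diet, with circles for the litter of brothers and triangles for the other boars, and the mean with its SD (n = 4) beside the points. The diets overlap in every panel, ACR varies least with an SD of 0.09 over the 8 boars, and ZPBP and ZAN vary most with 0.46 and 0.49.

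SPO11 codes for the protein that cuts DNA to start recombination in meiosis. Its probe (A_72_P303334) is printed on 5 spots of the array. SPO11 was read at 6.79, 7.17, 7.01 and 7.19 in the supplemented boars m_9597, m_9599, m_9499 and m_9527, and at 6.91, 6.89, 7.25 and 7.38 in the control boars m_9598, m_9600, m_9502 and m_9528. The diets overlapped, with the lowest value in a supplemented boar and the highest in control boar m_9528, and the 3 lowest values all came from the litter of brothers. The means were 7.04 ± 0.19 (SD, n = 4) and 7.11 ± 0.25 (SD, n = 4), and the log2 fold change was -0.06 (standard error, SE, 0.17, limma adjusted p = 0.925). An exact permutation test gave p = 0.686. SPO11 was a transcript of middling brightness, brighter than 45.5% to 52.2% of the probes on each array, with a signal of 4.47 to 7.45 times its local background. Since no background was subtracted, a fold change at this brightness is understated. Within an array the 5 spots had an SD of 0.07 to 0.23, with a median of 0.15. The brothers gave a difference of 0.08 and the other boars of -0.21, and leaving out single boars gave -0.14 (m_9600) to 0.03 (m_9528).

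Of 57 genes written down for recombination and meiotic prophase, only MAEL had a named probe besides SPO11. Only 3064 of the 43603 probes had a gene name, so genes without a named probe may still be on the array. MAEL (A_72_P302904), which guards the germ line against transposons, was read at 15.25, 15.45, 15.11 and 14.81 on the supplemented and at 15.52, 15.39, 14.95 and 15.44 on the control diet, boars in the same order. The lowest values belonged to one boar of each diet, m_9527 and m_9502, and the others lay between 15.11 and 15.52. Its log2 fold change was -0.18 (SE 0.19, limma adjusted p = 0.843), and it lay between -0.30 (without m_9502) and -0.06 (without m_9527) when single boars were left out.

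PRM1 codes for protamine 1, which takes the place of histones in the sperm head. The PRM1 probe (A_72_P223762) was among the 21 brightest probes of every array and reached rank 4 on one of them. PRM1 had a log2 signal of 18.57, 18.48, 18.42 and 18.57 in the supplemented boars and of 18.74, 18.60, 18.45 and 18.80 in the control boars. All 4 supplemented boars lay below the median of the control boars, but control boar m_9502 lay among them, so that the diets overlapped. The means were 18.51 ± 0.08 (SD, n = 4) and 18.65 ± 0.16 (SD, n = 4), with a log2 fold change of -0.13 (SE 0.14, limma adjusted p = 0.842, exact permutation p = 0.2). The difference was -0.14 in the brothers and -0.13 in the other boars, but -0.08 without boar m_9528, -0.09 and -0.08 with gProcessedSignal and gMedianSignal scaled to the 75th percentile, and -0.20 without boar m_9502. Only 6.69% of the present probes had a smaller SD over the 8 boars. The signal was not saturated on any array, and Feature Extraction took it from the scan at low gain, which it scales up, on all 8.

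PRM2, the second protamine and the direct neighbour of PRM1 in the genome assembly Sscrofa11.1, was the one other gene of 27 for spermatid chromatin that had a named probe (A_72_P165251). It was read at 18.56, 18.45, 18.25 and 18.14 on the supplemented and at 18.11, 18.37, 18.28 and 18.53 on the control diet. The boars did not fall in the order they had for PRM1, and boar m_9598, second highest for PRM1, was lowest for PRM2. Its log2 fold change was 0.03 (SE 0.16, limma adjusted p = 0.970), with 0.26 in the brothers and -0.21 in the other boars. It was 0.23 with array weights and 0.13 and 0.14 after scaling to the 75th percentile, and turned to -0.04 without boar m_9597 or m_9598 and to -0.006 without boar m_9599.

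ACR codes for acrosin, the trypsin-like protease of the acrosome. The ACR probe (A_72_P035726) gave 17.01, 16.99, 17.03 and 16.82 on the supplemented diet and 16.82, 16.91, 16.86 and 16.98 on the control diet. Except for boar m_9527 the supplemented boars lay just above the control boars, and the whole range over the 8 boars was 1.16-fold. The means were 16.96 ± 0.10 (SD, n = 4) and 16.89 ± 0.07 (SD, n = 4), with a log2 fold change of 0.07 (SE 0.13, limma adjusted p = 0.891, exact permutation p = 0.286). The 95% confidence interval ran from -0.22 to 0.36. The difference was 0.14 in the brothers but 0.005 in the other boars, 0.12 without boar m_9527 and 0.05 without boar m_9598. It was 0.13 and 0.14 after scaling to the 75th percentile (gProcessedSignal and gMedianSignal) and 0.14 with array weights. ACR was a steady transcript, and only 0.79% of the present probes had a smaller SD over the 8 boars.

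SPAM1 codes for the hyaluronidase of the sperm surface (PH-20), with which sperm pass the cumulus cells around the egg. SPAM1 (A_72_P165181) was read at 13.45, 13.53, 13.69 and 13.18 in the supplemented boars and at 13.64, 13.81, 13.55 and 13.05 in the control boars. The low values were those of 1 boar of each diet, m_9527 and m_9528, both outside the litter of brothers, and the remaining 6 boars lay between 13.45 and 13.81. The means were 13.46 ± 0.21 (SD, n = 4) and 13.51 ± 0.33 (SD, n = 4), with a log2 fold change of -0.05 (SE 0.19, limma adjusted p = 0.952, exact permutation p = 0.8). The sign differed between the brothers (-0.23) and the other boars (0.13), and also with the boar left out, from -0.20 without m_9528 to 0.05 without m_9600.

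ZPBP codes for a protein of the acrosomal matrix that binds the zona pellucida, the coat of the egg. ZPBP (A_72_P077476) had a log2 signal of 16.03, 15.96, 16.03 and 15.23 on the supplemented diet and of 16.62, 16.04, 15.64 and 16.63 on the control diet. The control boars m_9598 and m_9528 stood above all others, boar m_9527 stood below all others, and all 4 supplemented boars lay below the control median, while control boar m_9502 kept the diets overlapping. The means were 15.81 ± 0.39 (SD, n = 4) and 16.23 ± 0.48 (SD, n = 4), with a log2 fold change of -0.42 (SE 0.27, limma adjusted p = 0.840, exact permutation p = 0.2). The supplemented mean was thus 1.34-fold lower, with a 95% confidence interval from 2.05-fold lower to 1.14-fold higher. The difference was -0.34 in the brothers and -0.50 in the other boars.

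ZAN codes for zonadhesin, a large protein of the acrosome that binds the zona pellucida and was first found in pig sperm. ZAN (A_72_P088386) was read at 15.30, 15.48, 15.56 and 15.91 in the supplemented boars and at 14.65, 15.43, 15.60 and 14.48 in the control boars. Here the control boars m_9598 and m_9528 were the low ones and boar m_9527 the high one, and all 4 supplemented boars lay above the control median. The means were 15.56 ± 0.26 (SD, n = 4) and 15.04 ± 0.56 (SD, n = 4), with a log2 fold change of 0.52 (SE 0.27, limma adjusted p = 0.840, exact permutation p = 0.2). This is 1.44-fold, with a 95% confidence interval from 0.942-fold to 2.19-fold. The brothers gave 0.35 and the other boars 0.69.

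ZPBP and ZAN mirrored each other over the 8 boars. Around their own means the pair had a root mean square difference of 0.88, the largest of the 21 pairs among the 7 genes, and of 0.16 when the sign of one was turned. Around the mean of all boars, boar m_9527 was at -0.79 for ZPBP and at 0.61 for ZAN, boar m_9528 at 0.61 and -0.82, and boar m_9598 at 0.60 and -0.65. The pair was picked after its values were seen. The arrays of the boars m_9598 and m_9528 also had the highest median signals before normalization, 192.5 and 174, and that of boar m_9527 the lowest, 108. The supplemented boars m_9599 (164) and m_9499 (158) came close to m_9528 but stood at -0.07 and 0.01 for ZPBP and at 0.18 and 0.26 for ZAN, and the boars m_9600, m_9597 and m_9502 had 137, 129.5 and 116. Both genes were read from the low-gain scan on all 8 arrays. The part of the array brightness in these values was not tested.

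The 2 genes were also those whose call moved with the boars used. With array weights, which gave control boar m_9502 the lowest weight (0.316), both passed an unadjusted limma P of 0.05, as did 15.8% of all present probes, and their adjusted p was 0.279 for ZAN and 0.287 for ZPBP. Without boar m_9502 both passed it too, as did 16.6% of all present probes, with a log2 fold change of 0.71 for ZAN (limma adjusted p = 0.279) and of -0.62 for ZPBP (limma adjusted p = 0.283). The fold change of ZAN shrank to 0.33 without boar m_9528, and that of ZPBP to -0.23 without boar m_9527. Over all 20 alternatives the adjusted p of ZAN lay between 0.279 and 1.0, and that of ZPBP between 0.283 and 1.0.

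Of 58 genes listed for the acrosome, 6 besides the members had a named probe, 10 probes in all. Their log2 fold changes had a median of -0.35 and lay between -0.59 and 0.17, with 8 lower and 2 higher on the supplemented diet. Of the 10 probes 0 passed a limma P of 0.05 (1.86% of all present probes). Without boar m_9502 3 of the 10 passed it (16.6%), and with array weights 2 did (15.8%). The median was -0.14 without boar m_9528, -0.19 without boar m_9527 and -0.50 without boar m_9502, and it was -0.11 in the brothers and -0.60 in the other boars. The brightest was one of 3 CRISP2 probes (A_72_P236712), for a cysteine-rich protein of the acrosome and tail. CRISP2 was read at 17.14, 16.88, 16.77 and 16.37 on the supplemented and at 17.32, 17.03, 16.54 and 17.72 on the control diet. Boar m_9527 was lowest and boar m_9528 highest, as for ZPBP. Its log2 fold change was -0.36 (SE 0.26, limma adjusted p = 0.840), and the other CRISP2 probes gave -0.59 and -0.39. ADAM3A, a membrane protein of the sperm head, was next (A_72_P232702), at 16.42, 16.42, 16.51 and 15.89 against 16.47, 16.52, 16.32 and 17.13. Again boar m_9527 was lowest and boar m_9528 highest, with a log2 fold change of -0.30 (SE 0.22, limma adjusted p = 0.840). The pair of ARSA probes differed in sign, with -0.43 and 0.17. In 1 of the 10 probes, that of DPY19L2 (A_72_P085026), the diets did not overlap, beside 1.13% of all present probes. DPY19L2 anchors the acrosome to the nucleus and had a log2 fold change of -0.24 (limma adjusted p = 0.840). The study had picked this probe by diet on the same boars, and its list was also a source of gene names here. The share of all present probes is therefore not a like measure for it.

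PGK2 codes for the phosphoglycerate kinase that male germ cells use in place of the one on the X chromosome, which is silenced in meiosis. PGK2 (A_72_P223397) had a log2 signal of 16.42, 16.46, 16.18 and 16.04 on the supplemented diet and of 16.42, 16.40, 16.20 and 16.99 on the control diet. The brothers lay between 16.40 and 16.46 whatever their diet, and control boar m_9528 stood above the other 7 boars. The means were 16.27 ± 0.20 (SD, n = 4) and 16.50 ± 0.34 (SD, n = 4), with a log2 fold change of -0.23 (SE 0.20, limma adjusted p = 0.840, exact permutation p = 0.371). It was 0.03 in the brothers and -0.49 in the other boars, and with all boars but m_9528 it was -0.07, with all but m_9527 -0.15. With array weights it was -0.09. In the assembly Sscrofa11.1 PGK2 lies between CRISP3 and CRISP1.

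The energy list was written down with 24 genes for energy enzymes with germ cell forms and for proteins beside them. ACE, TPI1 and VDAC3 also had probes, 4 in all, which other cells than germ cells express too, and only TPI1 is an enzyme of energy metabolism, since ACE is a peptidase and VDAC3 a channel. The 4 log2 fold changes lay between -0.30 and -0.01, and 0 passed a limma P of 0.05. Their median of -0.15 turned to 0.10 in the brothers, with 3 of the 4 higher, to 0.03 without boar m_9527 and to 0.007 with array weights, and it was -0.28 in the other boars. VDAC3, a channel of the outer mitochondrial membrane (A_72_P077851), was read at 15.99, 15.96, 15.91 and 15.55 against 16.21, 15.94, 15.75 and 16.14, with a log2 fold change of -0.16 (SE 0.17, limma adjusted p = 0.842). The glycolytic enzyme TPI1 (A_72_P073361) was read at 12.69, 12.79, 13.08 and 12.41 against 12.30, 12.74, 12.80 and 13.15, with a log2 fold change of -0.01 (SE 0.21, limma adjusted p = 0.995). In both the supplemented boar m_9527 was the lowest of its diet.

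The sperm tail list, with a named probe for 7 of its 54 genes, held 9 probes, 7 of them lower and 2 higher on the supplemented diet. SPEF2, a protein of the tail axoneme, had the only one of the 9 probes with a limma P under 0.05 (A_72_P035366, beside 1.86% of all present probes). It was read at 14.23, 14.13, 14.17 and 14.29 on the supplemented and at 13.60, 13.71, 14.02 and 13.71 on the control diet. All supplemented boars lay above all control boars (exact permutation p = 0.0286), with a log2 fold change of 0.45 (SE 0.14, limma adjusted p = 0.840). The other SPEF2 probes gave -0.05 and -0.31, and the study had chosen the first probe on these boars. With gProcessedSignal 0 of the 9 probes, SPEF2 included, had a limma P under 0.05 (2.76% of all present probes). In the other boars alone it was also 0 of the 9 (0.971%), and with array weights 4 (15.8%). TXNDC8 (A_72_P423324), a thioredoxin of spermatids that the study had also chosen, did not overlap between the diets either, with a log2 fold change of -0.15 (limma adjusted p = 0.840). This made 2 of the 9 probes without overlap, beside 1.13% of all present probes. Both are in the study's list, which was chosen by diet and was also a source of gene names here. The share of all present probes is therefore not a like measure, and nothing is drawn from the count.

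Over the 5 germ cell lists without the members, 1 of 25 probes had a limma P under 0.05, and 20 were lower and 5 higher on the supplemented diet. Of all present probes 1.86% had such a P and 49.5% were higher. The study had picked 4 of the 25 by diet on these boars, those of DPY19L2, SPAG6, SPEF2 and TXNDC8. Its list was also a source of gene names, so these counts are not independent of the diet difference. The median log2 fold change of all 25 was -0.24, and it was -0.07 without boar m_9527, -0.13 without boar m_9528 and -0.16 without boar m_9598. In the brothers alone it was -0.08, and in the other boars -0.27. With signals after background subtraction, scaled to a common 75th percentile, 18 of the 25 were lower, and of all probes with a limma P under 0.05, 260 were higher and 759 lower, where the quantile-normalized values gave 347 and 342.

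**Figure D2:**
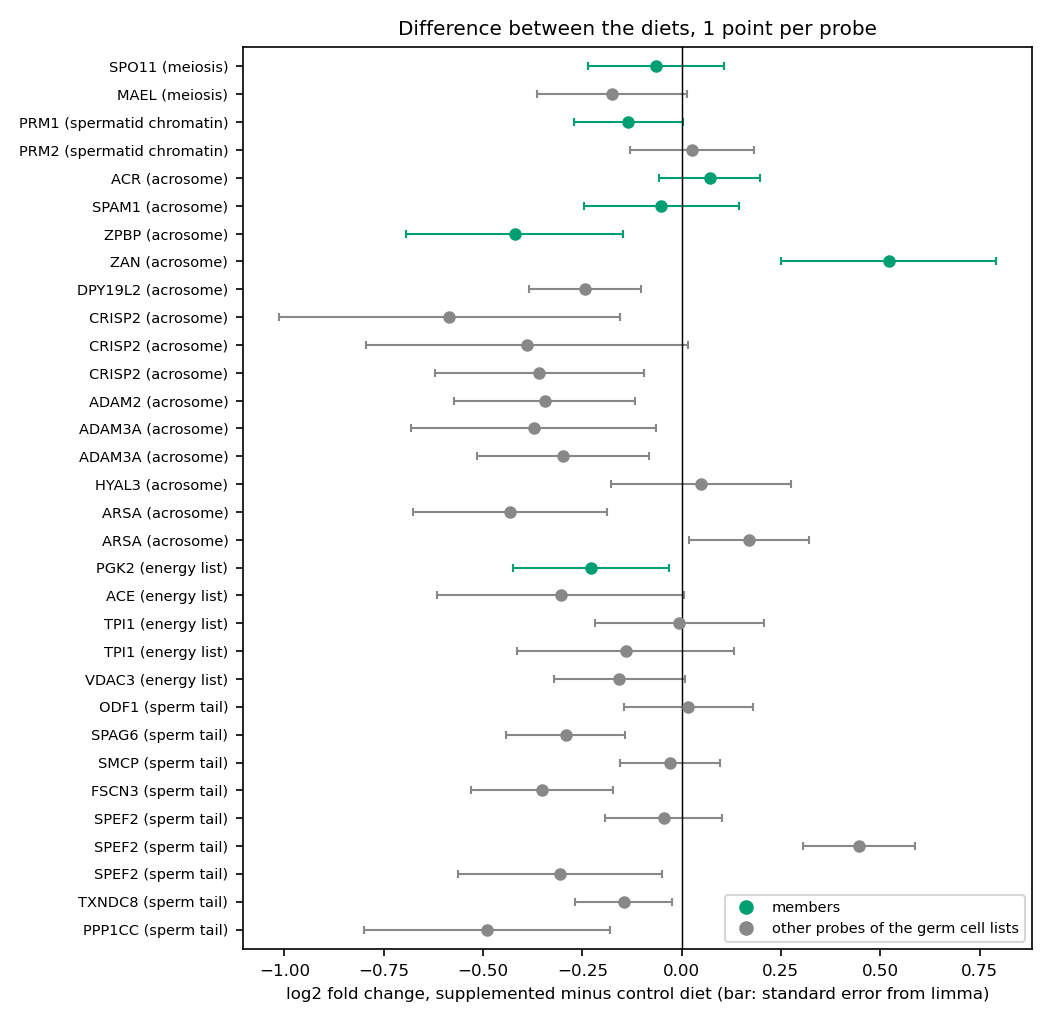
Log2 fold change (horizontal axis, supplemented minus control diet) of the 7 member probes (green) and the 25 other present probes of the germ cell lists (grey), with the standard error from limma as bars. Of the members ZAN is farthest to the right at 0.52 and ZPBP farthest to the left at -0.42, and most grey points lie left of 0.

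The brothers on slide 1 were also set against the other boars on slide 2, since both diets are found in each of these blocks. The gap between the diet difference of the brothers and that of the other boars had a limma P under 0.05 in 0 of 7 members. Of all present probes 2% had such a P, and 0% after adjustment, and the adjusted p of each member was 1.0. The largest such gap was that of PGK2, 0.52 (SE 0.39). With the slide as a block, which does not separate the litters among the other boars, the fold changes stayed as they were, and the smallest adjusted p of a member was 0.797 from limma. Whatever the diet, the mean of the brothers minus that of the other boars was -0.27 for SPO11 (SE 0.15) and 0.28 for ZPBP (SE 0.27). The adjusted p for this difference was 0.651 for SPO11, the smallest of the 7, and 0.761 for ZPBP.

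Between the boars the members did not move as one group. The median of the 7 genes around their own means lay between -0.11 in boar m_9527 and 0.06 in boar m_9599 on the supplemented diet, and between -0.07 in boar m_9502 and 0.22 in boar m_9528 on the control diet. Boar m_9528 was the highest of the 8 for 4 genes (SPO11, PRM1, ZPBP and PGK2) and the lowest for SPAM1 and ZAN. Boar m_9527 was lowest for ZPBP and PGK2, shared the lowest ACR value (16.82) with boar m_9598, and was highest for ZAN. The median SD over the 8 boars was 0.26 for the members and 0.30 for the present probes.

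The genes with the most like pattern over the 8 boars were sought among 2602 named probes that were present on all arrays, by the root mean square difference of the log2 signals around each probe's own mean. For ZPBP they were CAPZA1 (0.04), which caps actin filaments, and RAB11A (0.05), a small GTPase of recycling vesicles, where the median probe differed by 0.47. For ZAN they were SEC62 (0.09), of protein transport into the endoplasmic reticulum, and HMGB1 (0.10), a chromatin protein, with a median of 0.57. PGK2 had KDM1A (0.08) and MET (0.10), with a median of 0.37. SPO11 had OXSR1 (0.09) and STAT5A (0.10), and SPAM1 had CS (0.08) and PI3 (0.12), with medians of 0.38 and 0.39. PRM1 and ACR varied so little that a flat line came to within 0.13 and 0.08 of them. Their nearest genes were CCR7 (0.06) and ITSN2 (0.07) for PRM1, and NDUFB8 (0.06) and INSL3 (0.06) for ACR.

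Since a piece of testis can hold different shares of cells, genes written down as markers of other cell types were read in the same boars. They are given as the median of each list around the mean of its probes. Whether each probe reports on that cell type alone was not tested. The duct epithelium list (8 present probes, 4 of 11 genes, EPCAM the brightest on average) had its highest medians in the control boars m_9598 (0.86) and m_9528 (0.54), the boars with high ZPBP and low ZAN. The other control boars had 0.23 (m_9600) and -0.46 (m_9502), and the supplemented boars m_9597, m_9599, m_9499 and m_9527 had -0.41, 0.30, -0.55 and -0.25. Not every probe followed these medians. The brightest EPCAM probe (A_72_P146646) was highest in m_9598 (13.34), but m_9599 (12.73) and m_9600 (12.64) lay above m_9528 (12.62). DEFB1 (A_72_P077736) was high in m_9598 (9.51) and m_9502 (9.56) but low in m_9528 (7.04). All 8 probes were lower on the supplemented diet, with a median log2 fold change of -0.60, and 0 passed a limma P of 0.05. In the brothers 2 of the 8 were higher, and the median was -0.99 with gProcessedSignal (1 of 8 with P under 0.05) and -0.89 over the 7 probes present on 3 of 4 arrays. With array weights 4 of the 8 had a P under 0.05 (15.8% of all present probes), and 3 did without boar m_9599 (1.91%) or without boar m_9502 (16.6%). The summed signal of the list, as log2, was 11.42, 13.81, 12.39 and 12.51 in the supplemented boars and 14.38, 13.67, 12.50 and 13.63 in the control boars m_9598, m_9600, m_9502 and m_9528.

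The medians of peritubular muscle cells and macrophages were below 0 in the boars m_9598 and m_9528, though not for every probe nor in these boars only. Peritubular medians (8 probes, 4 of 7 genes, DES the brightest on average) were -0.43 and -0.27 in these boars, 0.46 and -0.08 in the control boars m_9600 and m_9502, and 0.05, 0.17, -0.16 and 0.26 in the supplemented boars. The summed peritubular signal, as log2, was 14.84 in boar m_9598 and 14.86 in boar m_9528, and between 15.09 and 15.81 in the other 6. By diet 4 of the 8 probes were higher and 4 lower, with a median log2 fold change of 0.10, and 0 had a limma P under 0.05. With array weights the median was 0.22 with 2 such probes (15.8% of all present probes), and without boar m_9600 0.22 with 2 (3.28%). Without boar m_9502 it was 0.12 with 3 (16.6%), and in the brothers 0.08 with 2 (6.44%). It was 0.04 without boar m_9599, m_9598 or m_9527. Of the MYLK probes A_72_P208932 (12.16 and 11.96) and A_72_P384328 (9.07 and 9.54) were high in the boars m_9598 and m_9528. They were also high in boar m_9600 (12.29 and 9.08). Macrophage medians (8 present probes, 5 of 10 genes, AIF1 the brightest on average, below C1QA in m_9599, m_9598 and m_9528) were -0.42 and -0.59 in the boars m_9598 and m_9528, 0.67 and -0.43 in the boars m_9600 and m_9502, and -0.07, -0.04, 0.15 and 0.60 in the supplemented boars. All 8 macrophage probes were higher on the supplemented diet, with a median log2 fold change of 0.35, but in the brothers alone 7 of the 8 were lower. In the other boars the median was 0.81, with 4 of the 8 at a limma P under 0.05 (0.971% of all present probes), and it was 0.63 without boar m_9600, again with 4 (3.28%), and 0.20 without boar m_9527. Its summed signal, as log2, was 10.92 and 10.76 in the boars m_9598 and m_9528 and between 11.16 and 12.29 in the other 6. Every gene of these 3 lists that had a probe was present. The part of these cells in the values of ZPBP and ZAN was not tested.

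Of 17 Leydig cell probes 16 were lower on the supplemented diet, with a median log2 fold change of -0.35. It became -0.06 without boar m_9527, but -0.81 without boar m_9499, with 12 of the 17 at a limma P under 0.05 (2.03% of all present probes), and -0.59 in the brothers alone, with 10 of the 17 (6.44%). In the other boars alone it was -0.13, with 5 of the 17 higher and 1 at such a P (0.971%). With array weights it was -0.39, with 4 at such a P (15.8%). With all boars and no array weights the only one with a limma P under 0.05 was a relaxin probe (A_72_P146831). It is named RLN2 by RefSeq and RLN1 by the study, which had picked it on these boars. Its diets did not overlap, with a log2 fold change of -2.90 (SE 0.42, limma adjusted p = 0.840). Sertoli cell probes were split, with 6 higher and 6 lower and a median of 0.01 (-0.05 to 0.08 over the alternatives), and their boar medians lay between -0.16 and 0.12. Spermatogonial probes (5, of 4 genes) had a median of -0.05, with UCHL1 the brightest on average, though below DMRT1 or KIT in some boars. This median turned to 0.28 without boar m_9527 and to 0.22 without boar m_9600, was -0.34 without boar m_9502, and the boar medians lay between -0.83 (m_9502) and 0.55 (m_9600). Endothelial probes (5, of 3 genes) had a median of -0.01, and of 0.28 in the boars other than the brothers. No gene of red blood cells was analysed here.

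**Figure D3:**
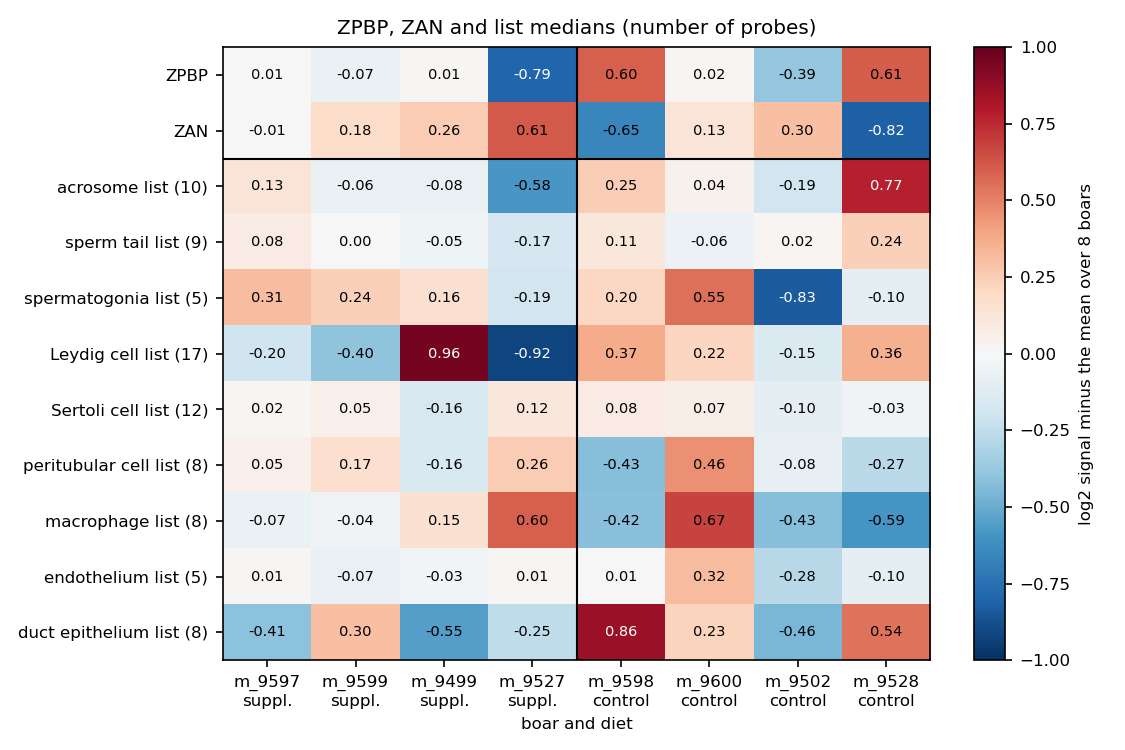
Log2 signal minus the mean over the 8 boars (colour and printed value) for ZPBP, ZAN and the median of each list, with the number of probes behind it, in the 8 boars (columns, supplemented diet left and control diet right of the line). ZPBP is high and ZAN low in the boars m_9598 and m_9528, and the duct epithelium list is highest there with 0.86 and 0.54.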

How the data were processed

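The authors deposited, for each boar, the spot intensity as read by Feature Extraction (10.5.1.1 in the file headers), not normalized between arrays, and a table of quantile-normalized log2 values. No value of the deposited log2 table differed from the recomputed ones by more than 0.06. Here, log2 of the median spot signal (gMedianSignal) was quantile-normalized over spots that are not controls, without background subtraction, and the 5 SPO11 spots were averaged. A probe was present if its signal was above 25 and flagged well above background on 50% of the arrays of a diet. Diets were compared with limma 3.58.1 in R 4.3.3 (lmFit and eBayes, two-sided, Benjamini-Hochberg over the present probes). Tables and figures were made with Python 3.11.15, pandas 2.3.3 and matplotlib 3.10.9, and the code was tested on simulated data.

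Of 3239 probes with a RefSeq accession, 2628 matched the RefSeq table (Sscrofa11.1, used for names and neighbours). With the study's list 3064 probes had a name. The study chose that list by a P under 0.05 between the diets, so a probe named only there entered through its diet difference. Boars carry the last part of their deposited titles. Members and lists were chosen with earlier results of these data known. The probes named were each member's, then from each list up to 3 with the smallest limma P under 0.05 in each direction or else the 2 brightest, and the 2 genes most like each member. ARSA, DPY19L2, TXNDC8, SPAG6, ACE, INSL3, MYLK, DMRT1, DEFB1 and the further CRISP2 and SPEF2 probes were named after their values were seen.

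Alternatives were the background-subtracted gProcessedSignal and gMedianSignal scaled to the 75th percentile, normexp with an offset of 50 on gMedianSignal (the files used here hold it in place of gMeanSignal), presence on 3 of 4 arrays, no filter, an intensity trend with robust variances, array weights, the slide as a block (the brothers against the other boars, whose litters it does not separate), each of these blocks by itself, the authors' log2 values, and leaving out boars one by one. Leaving out outlier spots was chosen after seeing the data.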

Additional observations from a re-analysis of the deposited data

Results flagged for a closer look

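A boar was singled out where it lay farther from the other 3 of its diet than Dixon's test allows, which happened in 3 of 40 groups, and chance gives about 1 in 20, or 2 of 40. ZPBP was low in the supplemented boar m_9527, with a log2 signal of 15.23 against 15.96 to 16.03 in the other supplemented boars. The energy list (probes of ACE, TPI1 and VDAC3) was low in the same boar, with a median of -0.58 around the mean of its probes against 0.05 to 0.14. On the control diet, boar m_9600 had a macrophage list median of 0.67, above the range of -0.59 to -0.42 in its group.

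For PGK2 the diets went opposite ways in the brothers and in the other boars, who are of more than one litter. Both supplemented brothers lay above both control brothers, by 0.03 on average and with m_9597 and m_9598 both at 16.42, and among the other boars both supplemented boars lay below both control boars, with a mean difference of -0.49. The control boars there were unlike, with m_9528 at 0.60 and m_9502 at -0.19 around the mean of all boars. The gap between these differences was 0.52 (SE 0.39, limma adjusted p = 1.0). With 2 boars against 2, the diets did not overlap in 37.1% of all present probes in the brothers and in 22.6% in the other boars. SPO11 (0.08 and -0.21) and SPAM1 (-0.23 and 0.13) also differed in sign between the brothers and the other boars, but their diets overlapped in one or both of these blocks.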

How the results depend on the processing

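Over 20 alternatives the fold changes of PRM1, ACR, ZPBP and ZAN kept their direction, that of ACR at only 0.0049 in the boars other than the brothers, and no member reached an adjusted p under 0.05 in limma. SPO11 turned to 0.00081 with array weights, to 0.082 in the brothers alone, and lay between -0.14 and 0.026 when single boars were left out. SPAM1 turned to 0.13 in the boars other than the brothers and lay between -0.20 and 0.049 when single boars were left out. PGK2 turned to 0.029 in the brothers alone. The number of members with P under 0.05 was 2 with array weights, and between 0 and 2 when single boars were left out, the highest without boar m_9502. The number of other germ cell probes under 0.05, 1 in the values reported, was 0 with gProcessedSignal and in the other boars alone, 2 with normexp and 6 with array weights, and between 1 and 5 when single boars were left out, the highest again without boar m_9502. The members whose diets did not overlap numbered 5 in the brothers alone (37.1% of all present probes) and 2 in the other boars alone (22.6%), with 2 boars per diet in each, and between 0 and 2 when single boars were left out (PRM1 and ZPBP without boar m_9502, with 15.6% of all present probes, and ACR without boar m_9527, with 2.35%, beside 1.13% with all boars). Of all present probes 689 had P under 0.05, but 5830 with array weights, 2381 in the brothers, 359 in the other boars alone and 6155 without boar m_9502. The cause of these changes was not tested. SPO11, at 4.47 to 7.45 times its local background, is the member whose fold change the background limits most.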
